A study of Homo sapiens with 16 samples.

Results

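PDCD4, EIF4B and EIF4G2 encode 3 proteins that work with or against the RNA helicase eIF4A, and the 3 genes were chosen for that role. They were found among 8876 genes that could be named in the deposited footprint counts. In ribosome profiling, RNase I digests the mRNA that no ribosome covers, and the footprints left on a coding sequence are counted as a measure of the ribosomes on it. The unmodified (WT) cell lines were NCI-H1650 and NCI-H520, both from lung cancers, and Hs 936.T and A375, both from melanomas. Each line was exposed for 30 min to the solvent DMSO (2 libraries), to 0.3 µM rocaglamide A (RocA, 1 library) or to 3 µM RocA (1 library), 16 libraries in all. Per its title, the study addressed eIF4A and DDX3 as joint targets of RocA. Nothing in the labels says that the 2 DMSO libraries of a line came from separate cultures, so the p-values measure only the spread between these libraries. The 4 lines served as the replicates of a dose.

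eIF4A unwinds RNA structure in the 5′ leader so that the small ribosomal subunit can load and scan. In the eIF4F complex it is held by the scaffold eIF4G beside the cap-binding protein eIF4E. EIF4B encodes a cofactor that raises the helicase activity of eIF4A. PDCD4 encodes a tumour suppressor whose MA3 domains bind eIF4A and keep it out of eIF4F. EIF4G2, also called DAP5 or NAT1, encodes a relative of eIF4G that binds eIF4A and eIF3 but lacks the part that binds eIF4E. Rocaglamide A is a plant compound that clamps eIF4A onto purine-rich RNA, and a clamp in the leader can block scanning.

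The start of each coding sequence is shown because it tells the 3 mRNAs apart: 12 bases before the start codon, the start codon in capitals, and 15 bases after it (GENCODE 29, GRCh38).
PDCD4: aattaagggaaaATGgatgtagaaaatgag
EIF4B: ccctctcccaacATGgcggcctcagcaaaa
EIF4G2: caagccgccaaaGTGgagagtgcgattgca
EIF4G2 has GTG where nearly all genes have ATG: 5 of 8351 named genes with an annotated 5′ UTR had another annotated start codon. PDCD4 lies on chromosome 10 from 110871795 to 110900006 on the plus strand, EIF4B on chromosome 12 from 53006158 to 53042209 on the plus strand, and EIF4G2 on chromosome 11 from 10797050 to 10809110 on the minus strand. The sequence around the EIF4B start codon spans an exon junction.

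The longest run of purines (A or G) in each annotated 5′ UTR, with up to 9 flanking bases before it and 9 after it, is shown because RocA clamps eIF4A on purines. Capitals mark the run, read on the mRNA strand.
PDCD4: actgggtAGAAGAAAAcaaaaac
EIF4G2: tgggcggcGAAGGAGccattcgg
EIF4B: tcttccggcAGGAAGtctgtgcgt
The run was 9 bases in PDCD4, 7 in EIF4G2 and 6 in EIF4B, against a median of 8 over the 8351 genes. The RefSeq starts of all 3 genes lie downstream of these runs, so leaders that begin there lack them. Purines made up 59.1% of the 274 bases of the PDCD4 leader, a share above that of 85.9% of genes. They made up 42.3% of the 492 bases in EIF4G2 (above 11.2% of genes) and 37.7% of the 326 bases in EIF4B (above 4.57% of genes), where the median was 51.1%. Neither GAGAGA nor AGAGAG, searched on the mRNA strand and overlapping each other, occurred in any of the 3 leaders, and 14.7% of genes held one of them. GC content was near the median of 64.8% in each, at 60.2% in PDCD4, 61.2% in EIF4G2 and 65.6% in EIF4B. In these GENCODE leaders PDCD4 lay above the median purine share, and EIF4G2 and EIF4B below it. The share was not computed for RefSeq leaders of PDCD4 and EIF4G2, and a part of it in the response to RocA was not tested.

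A second annotated start of EIF4B is shown because it gives a much shorter leader. In RefSeq (GRCh38.p14) transcription starts 298 bases downstream of the GENCODE start, and 28 bases lead to the first ATG, with the opening run of pyrimidines (C or T) in capitals.
EIF4B: CTTTTgcgttctctttccctctcccaac
Only 4 of these 28 bases are purines (14.3%). An opening run of 5 or more pyrimidines was present at 5.17% of 35116 RefSeq starts, and the RefSeq starts of PDCD4 and EIF4G2 opened with a purine. The counts do not tell which start the cells used.

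The DMSO libraries held 536951 to 2965258 counts over named genes, and those with RocA 46128 to 534262. The lowest treated total, in NCI-H1650 at 3 µM, was 8.48% of its DMSO mean. Values are CPM, counts scaled to the size of the library, after TMM scaling, so each change is relative to the other genes of its library. No RNA-seq was used here, and more ribosomes per mRNA cannot be told apart from more mRNA. A rise in CPM need not be a rise in counts. EIF4B counts in A375 were 1236 and 1935 with DMSO and 539 and 454 with RocA. They were also lower with RocA in NCI-H1650 and Hs 936.T, and higher only in NCI-H520 (358 and 354, then 372 and 441). Totals also depend on sequencing depth, so whether ribosomes per cell rose cannot be told. Of the epithelial markers, 4 of 8 were named (KRT8, KRT18, EPCAM and CDH1), and they summed to 5400 to 25100 CPM in the lung lines, 533 to 911 in A375 and 8.33 to 13.4 in Hs 936.T. In every A375 library 2 of these 4 genes had no footprints. Of the melanocyte markers, 4 of 9 were named (PMEL, DCT, MITF and SLC45A2). They summed to 28100 to 55800 CPM in Hs 936.T and to 36.8 to 176 in A375. NCI-H1650 held 131 to 204 CPM. The lung line NCI-H520 held 905 and 2240 CPM in its DMSO libraries and 298 and 674 CPM with RocA, and the part of this in its values below was not tested. Of the squamous list only TP63 was named, at 0 in every NCI-H520 library, and of the alveolar list NKX2-1 and SFTPB, which did not exceed 20.4 CPM. Of the fibroblast list COL1A2 and COL3A1 did not exceed 3.22 CPM. Of the blood list PTPRC and CD74 were named, and their sum was 2970 to 4150 CPM in A375 and at most 237 elsewhere. In every A375 library 1 of these 2 genes had no footprints, so the sum there comes from the other alone. DMSO replicate 2 and the 3 µM library of NCI-H520 have NCI-H521 as their cell-line label and were grouped by title. Without these 2 libraries every dose call on the 3 genes held.

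With RocA, footprints on the inhibitor PDCD4 fell, those on the scaffold relative EIF4G2 fell, and those on the cofactor EIF4B rose, at both doses. At 3 µM the fits over the 4 lines gave a 5.71-fold lower level for PDCD4, a 4.01-fold lower level for EIF4G2 and a 3.50-fold higher level for EIF4B. All 24 treated values lay outside both DMSO libraries of their own line. Such a separation in each of the 4 lines was found downward for 27.3% of tested genes at 0.3 µM and 28.2% at 3 µM, and upward for 21.4% and 16.8%. A gene was called at a Benjamini-Hochberg adjusted p under 0.05, and calls were common: 58.5% of 5588 tested genes at 0.3 µM and 55.0% at 3 µM. Falls made up 31.4% and 30.3% of tested genes. All 3 genes passed the filter on low counts, which admits a gene on its DMSO libraries alone.

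**Figure D1:**
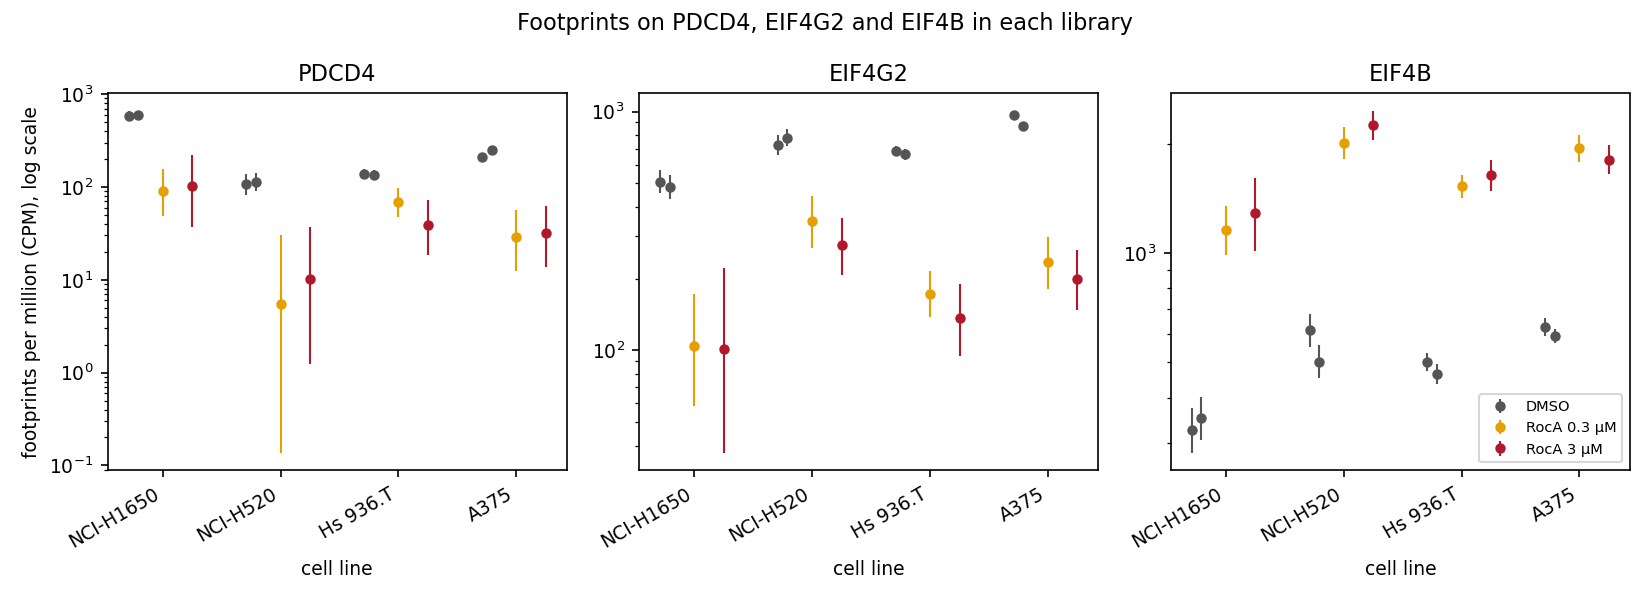
Footprint CPM (log axis, a separate range for each gene) on PDCD4, EIF4G2 and EIF4B in each library, by cell line and dose. Points are libraries and bars are exact 95% counting intervals; every treated PDCD4 and EIF4G2 point lies below, and every treated EIF4B point above, the 2 DMSO points of its line.

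Footprints on PDCD4 fell in all 4 lines. In NCI-H1650 it stood at 587.9 and 599.5 CPM with DMSO, 90.74 at 0.3 µM and 101.8 at 3 µM. In NCI-H520 the values were 106.3 and 113.6 CPM, then 5.422 and 10.22 CPM, which rest on 1 and 2 footprints. In Hs 936.T they were 138.9 and 135.8 CPM, then 68.69 and 39.01. The level in A375 went from 209.6 and 248.4 CPM to 28.86 and 31.95. NCI-H1650 was the highest line with DMSO and stayed so with RocA, and Hs 936.T lost the least. The treated level was 50% of the DMSO mean in Hs 936.T at 0.3 µM and 12.6% to 15.3% in A375 and NCI-H1650. For NCI-H520 the ratio was 4.92% at 0.3 µM (exact 95% counting interval 0.124% to 27.8%) and 9.27% at 3 µM (1.11% to 34.1%). Over the lines the log2 change was -2.11 ± 0.23 (SE) at 0.3 µM (edgeR quasi-likelihood test, adjusted p = 9.3e-10) and -2.51 ± 0.28 at 3 µM (edgeR, adjusted p = 3.8e-09). This placed PDCD4 at rank 168 and rank 140 from the lowest of 5588 genes. Its treated libraries held 1 to 33 footprints, so the depth of the fall in any single line is known only roughly.

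EIF4G2 fell in each line and by a narrower range. Its level in NCI-H1650 was 509 and 483.3 CPM with DMSO, 104.7 at 0.3 µM and 101.8 at 3 µM. In NCI-H520 it was 723.4 and 777.8 CPM, then 347 and 275.9. Hs 936.T gave 681.6 and 661 CPM, then 172.8 and 136.5. A375 gave 964.9 and 871.6 CPM, then 234.5 and 199.7. NCI-H520 kept 46.2% of its DMSO mean at 0.3 µM and 36.8% at 3 µM, whereas the other lines kept 20.3% to 25.7%. The fit gave -1.77 ± 0.14 at 0.3 µM (edgeR, adjusted p = 1.7e-14) and -2.0 ± 0.15 at 3 µM (edgeR, adjusted p = 1.8e-14), ranks 329 and 308 from the lowest. Treated libraries held 6 to 83 footprints on the gene.

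EIF4B rose in each line by a similar factor. In NCI-H1650 its level was 325.4 and 350.4 CPM with DMSO, 1159 at 0.3 µM and 1290 at 3 µM. In NCI-H520 it was 613.7 and 502.5 CPM, then 2017 and 2253. Hs 936.T gave 501.2 and 464.8 CPM, then 1532 and 1638. A375 gave 625.7 and 592.6 CPM, then 1945 and 1813. These are levels of 298% to 404% of the DMSO mean, and the lowest treated value of any line, 1159 CPM, lay above the highest DMSO value of any line. The fit gave 1.74 ± 0.10 at 0.3 µM (edgeR, adjusted p = 4.4e-19) and 1.81 ± 0.10 at 3 µM (edgeR, adjusted p = 1e-18). Of the tested genes 27.1% were called higher at 0.3 µM and 24.6% at 3 µM, and EIF4B held rank 105 and rank 71 from the highest.

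A called fall with the same sign in all 4 lines was found for 27.7% of tested genes at 0.3 µM and 27.1% at 3 µM, and a called rise of that kind for 21.7% and 17.5%. By size of change, PDCD4 lay lower than all but 2.99% of genes at 0.3 µM and 2.49% at 3 µM, EIF4G2 lower than all but 5.87% and 5.49%, and EIF4B above 98.1% and 98.7%.

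**Figure D2:**
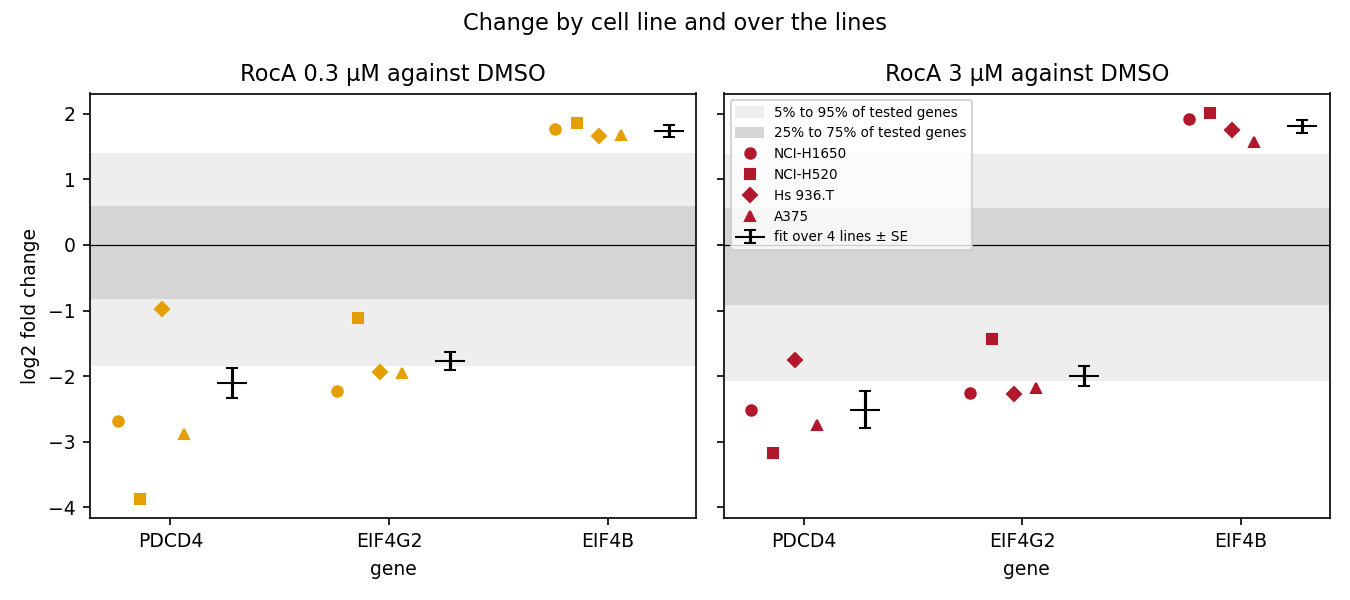
Log2 fold change against DMSO for each line (symbols; treated log2 CPM minus the DMSO mean of that line) and from the fit over 4 lines (black, ± SE), at 0.3 µM (left) and 3 µM (right). Grey bands hold 25% to 75% and 5% to 95% of the 5588 tested genes; the EIF4B symbols sit close together above the bands, while PDCD4 is spread from -3.87 to -0.98 at 0.3 µM.

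No difference between the doses was called for the 3 genes. From 0.3 to 3 µM the log2 difference was -0.40 for PDCD4 (95% interval -1.24 to 0.44, edgeR adjusted p = 0.73), -0.23 for EIF4G2 (-0.62 to 0.15, edgeR adjusted p = 0.64) and 0.07 for EIF4B (-0.16 to 0.30, edgeR adjusted p = 0.84). Of all tested genes 3.15% were called. Without Hs 936.T the PDCD4 difference turned to 0.15, and without only its 0.3 µM library to 0.43, neither of them called. These intervals leave room for a further 2-fold fall of PDCD4 but not for a further 2-fold change of EIF4B.

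Between lines, the responses differed for 1 contrast of PDCD4 and 1 of EIF4G2. The fall of PDCD4 in Hs 936.T was smaller than the mean fall of the other 3 lines by 1.86 ± 0.39 on the log2 scale (edgeR, adjusted p = 0.00094), a contrast that called 3.19% of tested genes. The call ended without the 0.3 µM library of Hs 936.T (1.07, edgeR adjusted p = 0.65) and when the libraries of each line were thinned to equal depth (1.59, edgeR adjusted p = 0.11). The fall of EIF4G2 in NCI-H520 was smaller by 0.90 ± 0.22 (edgeR, adjusted p = 0.017), where 1.20% of genes were called. That call ended in 12 of the 16 fits that left out 1 library each, over which the difference ran from 0.70 to 0.91, and after thinning (0.61, edgeR adjusted p = 0.39). Melanocyte markers in NCI-H520 were lower with RocA than with DMSO, as given above, and in the 0.3 µM library of Hs 936.T they summed to 55800 CPM against 28100 and 29100 with DMSO. Their part in these differences was not tested. EIF4B gave no called difference in any of the 5 contrasts, where the other single-line contrasts called 0.412% (NCI-H1650) and 0.322% (A375) of genes, its values ranging from -0.20 ± 0.14 for A375 to 0.22 ± 0.13 for the lung lines less the melanoma lines. For lung less melanoma, called for 1.07% of genes, PDCD4 gave -1.14 (95% interval -2.06 to -0.22, edgeR adjusted p = 0.26) and EIF4G2 0.30 (-0.15 to 0.76, edgeR adjusted p = 0.65). Without the 0.3 µM library of Hs 936.T the PDCD4 value was -0.70, and after thinning the EIF4G2 value was 0.61, neither called.

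With DMSO alone the lines differed most in PDCD4. NCI-H1650 held 593.7 ± 8.22 CPM (SD, n = 2), A375 229 ± 27.4, Hs 936.T 137.4 ± 2.24 and NCI-H520 109.9 ± 5.15. The 2 lowest did not overlap, but their difference was not called (log2 difference -0.33 ± 0.15 for NCI-H520 less Hs 936.T, 95% interval -0.62 to -0.04, edgeR adjusted p = 0.054), and this fell to either side of the threshold with other settings. The other 5 pairs were called. Of 6667 tested genes, 58.6% were called between NCI-H1650 and NCI-H520, 68.9% between NCI-H1650 and Hs 936.T, 62.4% between NCI-H1650 and A375, 59.5% between NCI-H520 and Hs 936.T, 55.1% between NCI-H520 and A375 and 64.9% between Hs 936.T and A375. The highest line exceeded the lowest by 2.34 ± 0.14 (edgeR, adjusted p = 3.2e-16), a 5.06-fold difference.

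EIF4B and EIF4G2 had NCI-H1650 as the lowest line and A375 as the highest. For EIF4B, A375 held 609.2 ± 23.4 CPM, NCI-H520 558.1 ± 78.6, Hs 936.T 483 ± 25.7 and NCI-H1650 337.9 ± 17.7. NCI-H520 was not called against A375 (-0.11 ± 0.10, edgeR adjusted p = 0.35) or Hs 936.T (0.19 ± 0.10, edgeR adjusted p = 0.097). Without NCI-H520 DMSO replicate 2 the latter became a call (0.31), and without Hs 936.T DMSO replicate 2 the call between Hs 936.T and A375 ended (-0.24). For EIF4G2, A375 held 918.3 ± 66 CPM, NCI-H520 750.6 ± 38.5, Hs 936.T 671.3 ± 14.6 and NCI-H1650 496.1 ± 18.2. The pair NCI-H520 and Hs 936.T was not called (0.15 ± 0.09, edgeR adjusted p = 0.15). NCI-H520 lay below A375, with a log2 difference of -0.26 ± 0.09 (edgeR, adjusted p = 0.012). Leaving out replicate 1 of either DMSO pair ended this call (-0.20 in both fits). NCI-H1650 was called below each other line for both genes.

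Per length, EIF4B was read more than both other genes in every treated library. With DMSO, EIF4B and EIF4G2 were read about equally per 1000 codons, with ratios of EIF4B to EIF4G2 from 0.954 to 1.27 over the 8 libraries. With RocA the ratio was 8.67 to 18.9 over the 8 treated libraries, and the ranges did not overlap. The ratio of EIF4B to PDCD4 per 1000 codons was 0.423 and 0.447 in NCI-H1650 with DMSO, where the inhibitor was read more than the cofactor. In the other lines it was 1.82 to 4.41. With RocA it was 9.68 to 51.5 in 3 lines, and 284 and 168 in NCI-H520, where 1 and 2 PDCD4 footprints set it. These ratios restate the changes above on a scale per length and are not a further test.

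With TMM scaling the helicase genes EIF4A1 and EIF4A2 were both called higher at both doses. Rises were called for 27.1% of tested genes at 0.3 µM and 24.6% at 3 µM. EIF4A1 encodes the main eIF4A isoform and was read at 5236 to 16610 CPM per 1000 codons in the DMSO means, against 552.5 to 1023 for EIF4G2. It changed by 0.24 ± 0.10 at 0.3 µM (edgeR, adjusted p = 0.045) and 0.43 ± 0.10 at 3 µM (edgeR, adjusted p = 0.00048). The first call ended with DESeq2 size factors (0.15) or library totals (0.01) in place of TMM. EIF4A2, the second isoform, rose by 1.08 ± 0.11 and 1.52 ± 0.11. EIF4H, a smaller relative of EIF4B, was not among the named genes.

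Of the list of eIF4F subunits, eIF4A cofactors and cap-binding genes, 17 of 25 were named and tested. At 0.3 µM 6 rose, 7 fell and 4 were not called, with a median log2 change of -0.17 against -0.08 for all tested genes. At 3 µM 6 rose and 8 fell, with a median of 0.04 against -0.15. Calls over all tested genes were 27.1% higher and 31.4% lower at 0.3 µM, and 24.6% and 30.3% at 3 µM. The scaffold EIF4G1 fell, with log2 changes of -0.45 ± 0.12 and -0.65 ± 0.13. EIF4G3, the third scaffold, gave -0.17 ± 0.17 and 0.04 ± 0.19 and was not called. The cap-binding gene EIF4E gave 0.21 ± 0.13, not called, and rose by 0.72 ± 0.13 at 3 µM. Genes of the nuclear cap-binding complex rose, NCBP1 by 0.54 ± 0.14 and 0.46 ± 0.15 and NCBP2 by 0.64 ± 0.14 and 1.15 ± 0.14. EIF4E2, which encodes a cap-binding relative of eIF4E, rose by 0.66 ± 0.16 at 0.3 µM and gave 0.41 ± 0.18 at 3 µM, not called. With library totals alone, EIF4E at 0.3 µM and EIF4G3 at 3 µM turned slightly negative, uncalled, and the NCBP1 rise at 3 µM was no longer called (0.26). At 0.3 µM EIF4G3 (-0.39) and PAIP1 (-0.40) became called falls with that scaling, for 5 rises and 9 falls in all.

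**Figure D3:**
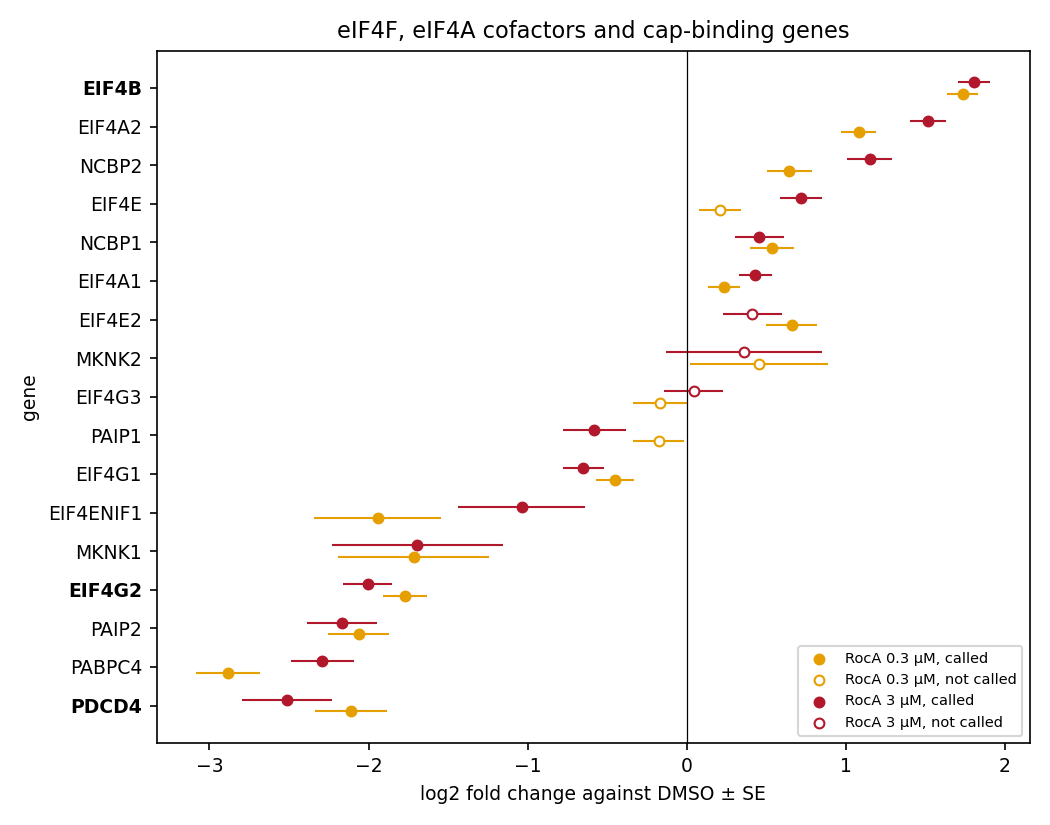
Log2 fold change against DMSO ± SE for the 17 tested genes of the eIF4F and cap-binding list at 0.3 µM (orange) and 3 µM (red), ordered by the 3 µM value, with filled points for calls. EIF4B has the highest value at both doses, and PDCD4 and EIF4G2 lie among the genes with the lowest values.

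The list holds 4 more genes that fell at both doses beside EIF4G1, PDCD4 and EIF4G2. PABPC4, a cytoplasmic poly(A)-binding protein gene, fell, with log2 changes of -2.88 ± 0.20 and -2.29 ± 0.20. PAIP2, which encodes an inhibitor of poly(A)-binding protein, fell too, with -2.06 ± 0.19 and -2.17 ± 0.22. PAIP1, which encodes an activator with an eIF4G-like domain, gave -0.17 ± 0.16 at 0.3 µM, not called, and -0.58 ± 0.20 at 3 µM, called. EIF4ENIF1, encoding the eIF4E transporter 4E-T, fell, with -1.94 ± 0.40 and -1.04 ± 0.40. MKNK1, encoding a kinase of eIF4E, fell as well, with -1.72 ± 0.47 and -1.69 ± 0.54. PDCD4 had the lowest value of the list at 3 µM and PABPC4 at 0.3 µM.

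In a list built around the MIF4G and MA3 fold of PDCD4 and EIF4G2, 10 of 13 genes were tested. At 0.3 µM 2 rose and 4 fell, with a median of -0.35, and at 3 µM 2 rose and 5 fell, with a median of -0.62. Over all tested genes 31.4% and 30.3% were called lower, with medians of -0.08 and -0.15. With library totals the list gave 1 rise and 6 falls at 0.3 µM, and 0 rises and 5 falls at 3 µM. PDCD4 had the largest fall at 3 µM. The largest rise there was that of SLBP, at 0.48 ± 0.14, a call that ended with library totals (0.27). SLBP encodes the histone stem-loop binding protein and does not itself have the fold, so the counts and medians include a gene without it. The other rise, that of NCBP1, was 0.54 ± 0.14 at 0.3 µM and 0.46 ± 0.15 at 3 µM, the latter not called with library totals. Of the other falls, CNOT1, which encodes the scaffold of the CCR4-NOT deadenylase, gave -1.84 ± 0.25 and -2.31 ± 0.30; it is named here after its values were seen. PDCD4 and EIF4G2 are themselves 2 of the falls counted.

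Kinases and ubiquitin ligase parts that act on PDCD4 and eIF4B protein moved in both directions. S6 kinase and RSK phosphorylate eIF4B, and S6 kinase marks PDCD4 for the SCF-βTrCP ligase. Of 15 tested genes 6 rose and 4 fell at 0.3 µM, and 5 rose and 6 fell at 3 µM, with medians of 0.23 and -0.40. Over all tested genes 27.1% and 24.6% were called higher and 31.4% and 30.3% lower. With library totals the counts were 4 rises and 5 falls, then 4 rises and 7 falls, as the RPS6KB1 rises at both doses and the MTOR rise at 0.3 µM lost their calls and PDPK1 became a called fall. RPS6KB2, which encodes an S6 kinase, rose most at 3 µM, by 3.08 ± 0.38, from a DMSO mean of only 5.09 CPM. CUL1, the scaffold of the SCF ligase, fell most, by 2.49 ± 0.29. Of the eIF3 genes, whose complex EIF4G2 binds, 5 of 9 rose and 3 fell at either dose, with medians of 0.45 and 0.28. With library totals 5 rose and 4 fell at 0.3 µM, EIF3M being added, and 3 rose and 3 fell at 3 µM, where EIF3E and EIF3J lost their calls. EIF3C rose most at 3 µM, by 1.35 ± 0.10, but has a near-identical copy with which reads can be shared, and EIF3G fell most, by 0.61 ± 0.14. A list around eIF2 and the 43S complex had 7 of 17 genes tested: EIF2A, EIF2D, EIF2B2, EIF2B3, EIF2B4, EIF5 and EIF6. The eIF2 subunit genes EIF2S1, EIF2S2 and EIF2S3 were not named, so eIF2 itself was not measured. Of the 7, 4 rose and 3 fell at either dose (3 and 3 at 0.3 µM with DESeq2 size factors or library totals). At 3 µM EIF2D moved most upward (1.59 ± 0.17) and EIF5, whose product acts in start codon selection, most downward (-2.44 ± 0.23).

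Reads of a gene are repeated over its transcript entries, which allowed parts of each coding sequence to be compared. Each of the 8 entries of EIF4B was called higher at both doses, with log2 changes from 1.73 to 2.01 at 0.3 µM and from 1.8 to 2.27 at 3 µM. Each of the 3 entries of PDCD4 was called lower, from -2.28 to -2.11 and from -2.60 to -2.51. The 11 distinct entries of EIF4G2 with footprints were called lower as well, over a wider range, from -2.50 to -1.27 and from -2.52 to -0.96. The entries share reads and are not separate tests.

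In EIF4B the rise was larger over the early codons. An entry that covers codons 1 to 223 of 611 held 35.5% to 47.4% of the gene's footprints in the DMSO libraries. At 3 µM its share was 50% for NCI-H1650, 48.1% for NCI-H520, 44.5% for Hs 936.T and 47.1% for A375. The share was higher than the DMSO mean in 4 of 4 lines, by 3.79 ± 3.28 percentage points (SD, n = 4) at 0.3 µM and 7.96 ± 3.09 at 3 µM. At 0.3 µM 2 lines lay between their own DMSO libraries. These were NCI-H1650 (46.4% against 43.6% and 47.4%) and Hs 936.T (39.5% against 39.8% and 36.2%). An exact sign-flip test, 2-sided, gave p = 0.125 at each dose, the smallest that 4 lines allow. The shift was not particular to EIF4B. Over 70 genes with an entry that ends at 20% to 60% of the coding sequence and at least 20 footprints in every library, the median shift was 10.5 points at 0.3 µM and 16.1 points at 3 µM. It was upward in 4 of 4 lines for 81.4% of those genes at either dose, and only 15.7% and 18.6% of genes had a smaller shift than EIF4B.

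**Figure D4:**
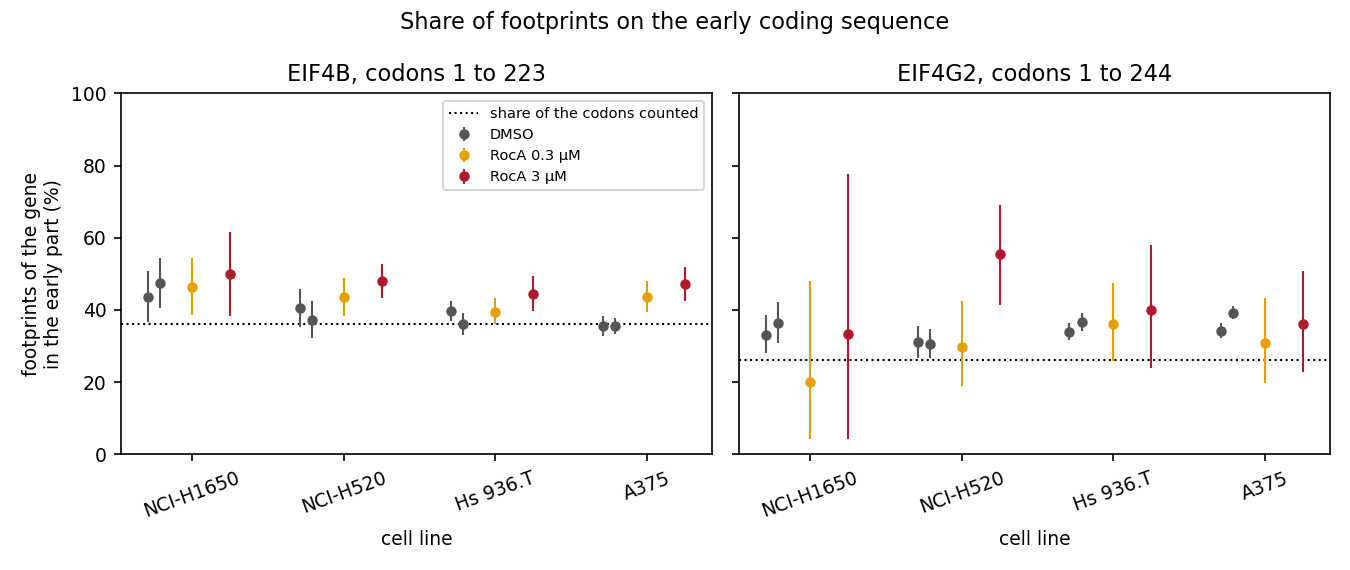
Share of the gene's footprints (%) on codons 1 to 223 of EIF4B and codons 1 to 244 of EIF4G2, by line and dose. Points are libraries, bars exact 95% counting intervals and the dotted line the share of the codons counted; in EIF4B all 3 µM points lie above the DMSO points of their line, and in EIF4G2 the interval clears the DMSO points of its line only for NCI-H520 at 3 µM.

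For EIF4G2 the treated footprints were too few to show whether the share shifted. Its entry of codons 1 to 244 of 907 held 30.7% to 39.3% of footprints with DMSO. The share was higher with RocA in 1 of 4 lines at 0.3 µM and 2 of 4 at 3 µM, with mean differences of -5.29 ± 6.98 and 6.78 ± 12.3 points (exact sign-flip test, 2-sided, p = 0.25 and p = 0.50). NCI-H520 at 3 µM stood apart, with 30 of 54 footprints (55.6%, exact 95% interval 41.4% to 69.1%) against 31.0% and 30.7% with DMSO. PDCD4 had too few treated footprints for a share to be read.

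The genes most like each of the 3 were found over the 16 libraries by the root mean square difference of centred log2 CPM, among 3020 genes with at least 50 CPM on average. For EIF4B they were MRPS27 (0.16), RPP30 (0.20) and SNRNP27 (0.27), against a median of 1.21 over all genes. For EIF4G2 they were API5 (0.26), HNRNPC (0.28) and LARP4 (0.31), against 1.32. For PDCD4 they were NCOA3 (0.47), WLS (0.65) and TMEM248 (0.66), against 1.95. The libraries share lines and doses, so likeness reflects both. PDCD4 and EIF4G2, which both fell, were 1.56 apart, further than the median gene from EIF4G2 (1.32) and nearer than the median gene from PDCD4 (1.95).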

How the data were processed

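Per the labels, cells received DMSO or RocA, and RNase I footprints were linker-ligated, depleted of rRNA and sequenced. Per the submitters' processing notes, CASAVA 1.8, Bowtie2 2.1.0 and TopHat2 2.0.9 were used with hg38. The deposited files give 182398 transcript entries with the codons counted (coding codons less 10) and the authors' footprint counts, not normalized. Whether counting used strand, and the annotation release, are not given in the sources used here.

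Entries carry no gene symbols. Coding lengths of neighbouring entries were matched to GENCODE 29 (minimum score 14 in natural log, minimum odds 100). Of 20418 coding genes 9092 matched, and 8876 were named after 216 with shared entries or symbols were dropped. Decoys passed in 14 cases, 0.154% of the 9092. That share is over all scores and is not the error rate near the minimum. EIF4G2 scored 43.6, EIF4B 31.0 and PDCD4 14.1, close to the minimum, with a second-best place at 8.1 and 3 of 3 lengths found. The entry with the highest sum stood for its gene (460, 602 and 898 codons for PDCD4, EIF4B and EIF4G2).

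Counts were fitted in R 4.3.3 with edgeR 4.0.16 (robust quasi-likelihood, TMM, filterByExpr minimum count 10): line and dose terms over 16 libraries, lines over the 8 DMSO libraries, and a response per line with 7 residual degrees of freedom. Tests are 2-sided with Benjamini-Hochberg adjustment over all tested genes. SE is the absolute log2 fold change divided by the square root of F. DESeq2 1.42.0 was an alternative. Figures used matplotlib 3.10.9. Intervals for single libraries are exact (Clopper-Pearson) and cover counting error only; reads without molecular identifiers are not independent molecules. DMSO replicates gave r = 0.966 to 0.993 across genes and 1.50 to 2.44 times counting variance, and their numbers did not pair the lines (correlations -0.03 to 0.07). On simulated counts, 88.0% of 92 planted 2-fold changes were called at 0.3 µM (3.31% of calls false), 78.3% of 92 at 3 µM (1.81%) and 45.1% of 91 for lung less melanoma (3.15%). Between lines with DMSO, 68% of 100 were called, and 6.32% of calls were false, the highest of these shares. Changes were planted in few genes, equally up and down, and all genes were given the median dispersion, without line-by-dose variation beyond the planted changes. In the data 58.5% and 55.0% of tested genes were called at the 2 doses, so these rates need not hold for the reported calls.

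The members and gene lists were chosen with earlier results of these data known. Beside the 3 genes, the text names fixed relatives, called genes of the eIF4F list, and the largest called rise and fall at 3 µM in each other list. The early-codon shares were chosen after the values were seen.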

Additional observations from a re-analysis of the deposited data

Results flagged for a closer look

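EIF4G2 in NCI-H520 at 3 µM stood far from the other lines: its log2 change was -1.44, and the other 3 lines lay between -2.28 and -2.19. Its response, over both doses, was smaller than the mean of the other lines by 0.90 (log2). PDCD4 in Hs 936.T fell less than in the other lines by 1.86 (log2). Chance puts about 1 in 20 such groups of 4 past the limit used for a value that stands apart, and 6 groups were looked at.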

How the results depend on the processing

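The calls of PDCD4, EIF4B and EIF4G2 at 0.3 and 3 µM kept their direction and their side of the threshold under each setting tried (29 for PDCD4, 30 for the others); PDCD4 is not named at the stricter naming score and has no value there. EIF4B ranged from 1.503 (library totals only) to 1.76 at 0.3 µM and from 1.64 to 1.90 at 3 µM, EIF4G2 from -2.09 to -1.69 and -2.34 to -1.88, and PDCD4 from -2.97 to -1.87 and -2.81 to -2.35. Library totals shifted the median of all genes from -0.08 to -0.30 at 0.3 µM and from -0.15 to -0.32 at 3 µM, and the share of calls that were rises from 46.3% to 33.9% and from 44.8% to 34.8%. The stricter naming score left 3 falls of the eIF4F list at 0.3 µM and 4 at 3 µM, since fewer genes are named. A replicate block changed no call of the dose or DMSO comparisons (for example EIF4B 1.69 and PDCD4 -2.07 at 0.3 µM, EIF4G2 -2.03 at 3 µM); treated libraries have 1 number each, and no block was fitted for the responses. NCI-H520 less Hs 936.T in PDCD4 with DMSO became a call with DESeq2 size factors (-0.34) and with no filter (-0.36), and ran from -0.41 to -0.28 with 1 library left out. Responses moved with thinning, PDCD4 in Hs 936.T to 1.59 and EIF4G2 in NCI-H520 to 0.61. In NCI-H1650 the sign reversed, for EIF4G2 from -0.49 to 0.20 and for PDCD4 from -0.05 to 0.74 (0.044 with DESeq2 size factors). Both NCI-H1650 responses were uncalled throughout. The cause of these moves was not tested. Leaving out 1 library or line, PDCD4 between doses ran from -0.68 to 0.43. The response of PDCD4 ran from -0.17 to 0.51 in NCI-H1650 and from 1.07 to 2.22 in Hs 936.T, that of EIF4G2 in NCI-H520 from 0.70 to 0.91 and that of EIF4B there from -0.041 to 0.36. With DMSO, EIF4B ran from 0.056 to 0.31 (NCI-H520 less Hs 936.T), -0.24 to 0.017 (NCI-H520 less A375) and -0.37 to -0.24 (Hs 936.T less A375), and EIF4G2 from -0.38 to -0.20 (NCI-H520 less A375). Where a line and group kept 1 library, it was assumed to vary like the others. Depth limits PDCD4 most, with 1 to 33 treated footprints.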
